A study of Mus musculus with 3 samples.

Results

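Topoisomerases cut DNA, let strands pass or swivel, and reseal the cut, which relieves the twist that builds up around transcription and replication. TOP1 cuts a single strand, TOP2A and TOP2B cut both strands, and TOP3A and TOP3B act on single-stranded nucleic acid. During the cut the enzyme is bound to the DNA end through a tyrosine, and doxorubicin, an anthracycline used in chemotherapy, holds TOP2 in that state. The tyrosyl-DNA phosphodiesterases TDP1 and TDP2 release trapped TOP1 and TOP2 from the DNA end so that the break can be repaired. The 5 nuclear topoisomerase genes (Top1, Top2a, Top2b, Top3a and Top3b) and both phosphodiesterase genes (Tdp1 and Tdp2) are described here. They were chosen by gene symbol, and all 7 were found among the 32285 genes of the matrices. In brain, Top2b is known as the form of non-dividing neurons and Top2a as that of dividing cells.

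The data are single-nucleus RNA counts from frozen mouse hippocampus, in a study of HDAC6 inhibition and the cognitive impairment caused by doxorubicin. There were 3 libraries, each made from the hippocampi of both sides of 4 mice pooled before the nuclei were isolated. The groups were control (no treatment), doxorubicin, and doxorubicin together with ACY-1083, a compound that inhibits HDAC6, a cytoplasmic deacetylase. The labels used here give no dose, timing, strain, sex or age, and no group received ACY-1083 alone. With 1 library per group there is no replicate and no test between groups, so each value describes a library and each interval covers counting error only.

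The libraries were not alike. They kept 10455, 11647 and 11846 nuclei (control, doxorubicin and doxorubicin plus ACY-1083, in this order below), with median UMIs (unique molecules) per nucleus of 1472, 1471 and 3849.5. Per the file headers, software version 4.0.0 made the matrices of control and doxorubicin, and version 5.0.0 made the third. In 11 of the 12 cell classes compared, over 90% of the third library's nuclei lay in clusters of their own, such as cluster 24 against cluster 21 for choroid plexus epithelium and cluster 19 against cluster 14 for oligodendrocyte precursors. Fibroblast-like cells were the exception, with the 3 libraries together in cluster 12. Between 29 and 46 cell barcodes were shared by any pair of libraries. The 12 classes had at least 100 nuclei in every library and comprised 6 neuron classes and 6 others. A class name stands for likeness to marker genes, and the 7 genes were kept out of the clustering.

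The genes lie on 6 chromosomes (GRCm38, GENCODE vM21), and each value counts UMIs over the whole gene. Top1 (ENSMUSG00000070544) spans 160645888 to 160722764 on chromosome 2 (plus strand), with 66.5 kb of intron. Top2a (ENSMUSG00000020914) spans 98992943 to 99024189 on chromosome 11 (minus strand), with 22.2 kb of intron. Top2b (ENSMUSG00000017485) spans 16365179 to 16435462 on chromosome 14 (plus strand), with 55.7 kb of intron. Top3a (ENSMUSG00000002814) spans 60740058 to 60777365 on chromosome 11 (minus strand), with 32.7 kb of intron. Top3b (ENSMUSG00000022779) spans 16870736 to 16892990 on chromosome 16 (plus strand), with 13.9 kb of intron. Tdp1 (ENSMUSG00000021177) spans 99884517 to 99955219 on chromosome 12 (plus strand), with 62.7 kb of intron. Tdp2 (ENSMUSG00000035958) spans 24831679 to 24842153 on chromosome 13 (plus strand), with 7.19 kb of intron. The introns matter below because the third library's counts followed intron length.

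Top1 encodes the main enzyme that relaxes twist ahead of RNA polymerase, and it was detected in every class of every library. Over all kept nuclei it had 5321, 5695 and 10869 UMIs, or 293, 281 and 183 CPM (UMIs of the gene per 1000000 UMIs counted). The levels of the 12 classes differed by 1.61-fold in control, 1.67-fold with doxorubicin and 1.78-fold in the third library between the highest and the lowest class. The lowest class was the same in all 3 libraries, the CA2/CA3 pyramidal neurons, at 221, 225 and 159.9 CPM. Their level was 0.733 times that of the other 11 classes together in control (95% interval 0.660 to 0.813), 0.786 times with doxorubicin (0.713 to 0.866) and 0.857 times in the third library (0.810 to 0.906). With nuclei thinned to 1000 UMIs and clustered anew, the ratios were 0.837, 0.874 and 0.913, against 8, 9 and 11 other classes. Their intervals held 1 in the doxorubicin (0.733 to 1.04) and ACY-1083 libraries (0.772 to 1.07). Within the original classes, 22.3%, 20.4% and 16.4% of thinned CA2/CA3 nuclei had a Top1 UMI, against 26.0%, 24.2% and 17.0% of all thinned nuclei. The part of depth or of the new clustering was not tested. CA2/CA3 nuclei were the deepest of the compared classes, at medians of 3099, 3173 and 9359 UMIs. The highest class differed between libraries. It was microglia in control (357 CPM), oligodendrocyte precursors with doxorubicin (374 CPM) and fibroblast-like cells in the third library (285 CPM). Dentate gyrus granule neurons, the largest class, had 347, 318 and 208 CPM. No pair of neighbours in the order of classes had intervals apart, in any library.

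**Figure D1:**
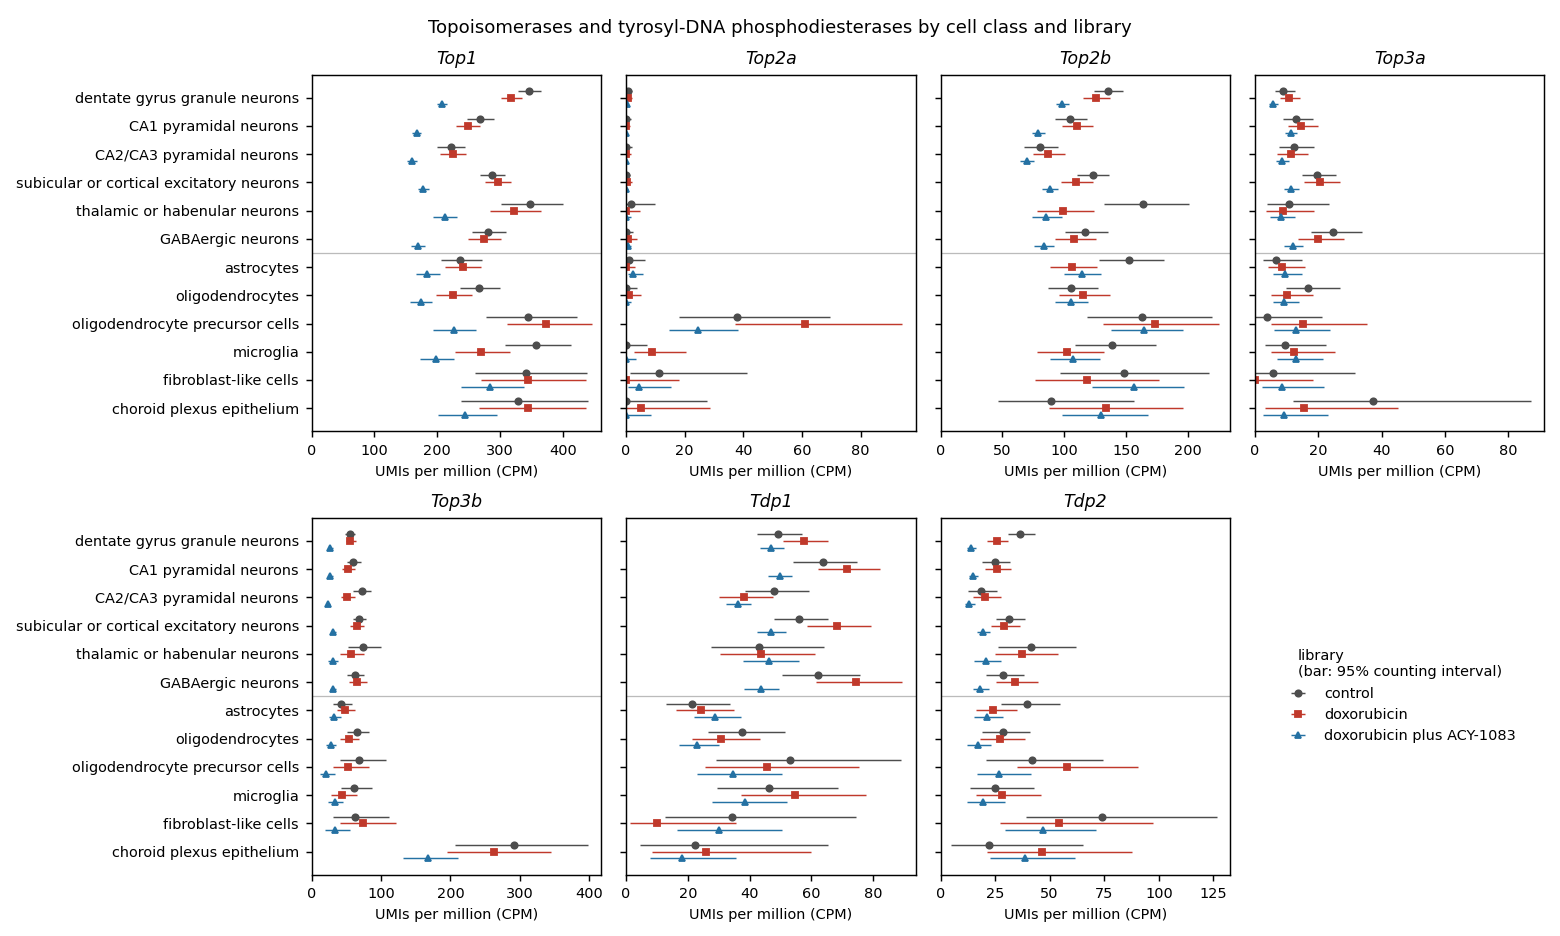
CPM (linear axes that differ between genes) of each gene in the 12 compared cell classes, with 1 point per library and bars for the exact 95% counting interval; the grey line parts neuron classes from others. Top3b stands apart in choroid plexus epithelium (291, 262 and 168 CPM), while Top1 and Top2b are found in all classes. Top2a is highest in oligodendrocyte precursor cells (37.9, 60.9 and 24.4 CPM), where several UMIs shared a nucleus. Its interval, which counts UMIs, is apart from the next class only with doxorubicin.

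The TOP2 genes, the targets of doxorubicin, differed in where they were found. Top2a, the form used to part chromosomes in dividing cells, had 18, 32 and 37 UMIs in all, in 10 of 10455, 16 of 11647 and 15 of 11846 nuclei. These are 0.0956%, 0.137% and 0.127% of nuclei, and the exact intervals overlap (0.0459 to 0.176, 0.0785 to 0.223 and 0.0709 to 0.209%). Top2b, the form of non-dividing cells, had 2173, 2290 and 5299 UMIs, and its class levels lay between 80.3 and 163 CPM in control, 87.0 and 173 CPM with doxorubicin and 69.6 and 165 CPM in the third library. The upstream sequences of both genes are shown because of this difference in distribution. They run to RefSeq's annotated start site (GRCm38.p6), which for Top2b lies inside the gene span given above, with matches to the motifs described after them in capitals. Top2a is given from chr11:99024190-99024439 (minus strand) and Top2b from chr14:16364956-16365205 (plus strand), both in the direction of transcription.
Top2a: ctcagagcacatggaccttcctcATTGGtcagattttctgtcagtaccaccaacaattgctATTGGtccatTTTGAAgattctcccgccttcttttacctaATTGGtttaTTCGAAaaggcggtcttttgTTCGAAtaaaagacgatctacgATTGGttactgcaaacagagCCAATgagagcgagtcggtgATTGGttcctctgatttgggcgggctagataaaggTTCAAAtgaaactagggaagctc
Top2b: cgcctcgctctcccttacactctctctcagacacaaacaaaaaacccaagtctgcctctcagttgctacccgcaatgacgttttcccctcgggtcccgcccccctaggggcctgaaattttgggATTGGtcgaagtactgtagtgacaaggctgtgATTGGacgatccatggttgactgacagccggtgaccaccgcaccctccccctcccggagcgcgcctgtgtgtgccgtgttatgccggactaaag

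The motifs searched on both strands were the CCAAT box, whose reverse complement reads ATTGG, and the cell cycle homology element. The latter was searched as TTTGAA with its reverse complement, which reads TTCAAA when printed here, and as the palindromic variant spelled TTCGAA. Both motifs are known from promoters of genes expressed in dividing cells, and no match of the first overlapped a match of the second. The Top2a window held 6 CCAAT boxes, starting 227, 189, 149, 98, 78 and 58 bases before the start site, and 4 cell cycle homology elements, starting 179, 140, 120 and 23 bases before it. Shares were taken over 32851 promoter windows of 300 bases, which hold 50 bases after the start site beside the 250 printed. Of these, 37.4% held a CCAAT box and 0.0791% held at least as many as Top2a, and 19.2% held a cell cycle homology element and 0.0244% held at least as many. The Top2b window held 2 CCAAT boxes, where 11.7% of windows held at least as many, and no match to the cell cycle element. The matches describe the letters of these windows and not binding.

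Top2a was highest in oligodendrocyte precursor cells, a glial class that still divides in the adult brain, in all 3 libraries. Their Top2a UMIs were 10, 20 and 19, or 37.9 CPM (95% interval 18.2 to 69.7), 60.9 CPM (37.2 to 94) and 24.4 CPM (14.7 to 38.1). Only with doxorubicin was this interval, which counts UMIs and not nuclei, apart from that of the next class, microglia (8.82 CPM, 2.86 to 20.6). The other 11 classes together had 6, 12 and 14 UMIs, or 0.382, 0.697 and 0.246 CPM. The level in precursors was thus 99.3 times that of the other classes in control (32.7 to 332), 87.3 times with doxorubicin (40.7 to 196) and 99.2 times in the third library (47.2 to 214). By nuclei, 4 of 268, 6 of 311 and 5 of 304 precursors had a Top2a UMI, which is 1.49% (0.408 to 3.78), 1.93% (0.711 to 4.15) and 1.64% (0.536 to 3.80). The shares of the libraries overlapped. CA1 and CA2/CA3 pyramidal neurons, which do not divide, had no Top2a UMI in any library, which allows a share of up to 0.279%, 0.246% and 0.195% of CA1 nuclei with a UMI at a limit of 3 counts, not of nuclei that express the gene. CA1 nuclei had medians of 2107.5 to 7404 UMIs against 749 to 2318 in precursors. The 6 neuron classes together had 3, 5 and 7 UMIs, or 0.231, 0.356 and 0.138 CPM. They held most of the UMIs counted in the other 11 classes, so the folds mainly set precursors against neurons. The 6 classes that are not neurons, precursors included, had 4.34, 7.66 and 3.68 CPM. The folds of precursors rest on few UMIs and moved with the nuclei kept. Single precursors held 4 of the UMIs in control, 5 with doxorubicin and 8 in the third library. The intervals of CPM and fold treat each UMI as independent, so they are too narrow for such UMIs. With at least 600 genes per nucleus the fold was 169.8 with doxorubicin (68.6 to 458) and 65.3 in the third library (32.1 to 134). With doublets kept the third library had 58.9 (29.5 to 118), and thinned to 1000 UMIs per nucleus it had 39.8 (11.5 to 143, from 7 and 6 UMIs).

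**Figure D2:**
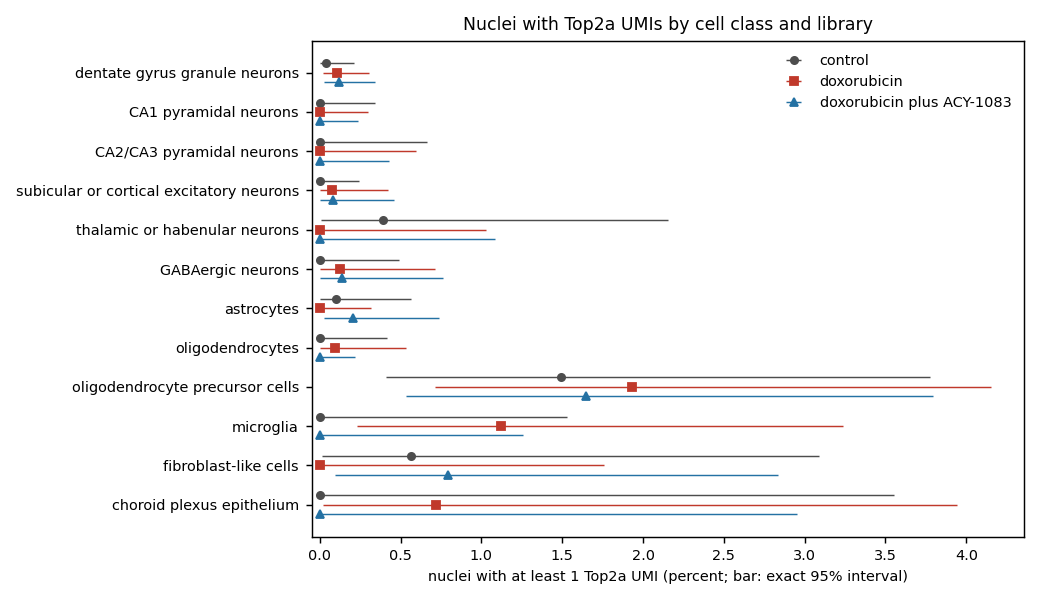
Percent of nuclei with at least 1 Top2a UMI in each compared class, with 1 point per library and bars for the exact 95% interval. Oligodendrocyte precursor cells have 1.49, 1.93 and 1.64%, and microglia have 1.12% in the doxorubicin library and 0 in the others.

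Nuclei with Top2a often held other genes of cell division. Of a list of 30 proliferation genes such as Mki67, Cenpf and Cdk1, at least 3 were detected in 3 of the 10 nuclei with Top2a in control, 8 of 16 with doxorubicin and 8 of 15 in the third library. Among nuclei without Top2a the share with at least 3 of these genes was 0.306%, 0.413% and 4.61%, the last in the deeper library. In precursors, 2, 5 and 5 nuclei met both conditions. The nucleus with the most genes of the list in the doxorubicin library was a precursor with 5 Top2a UMIs and 14 of the 30 genes. In the third library it was an astrocyte-class nucleus with 4 Top2a UMIs and 15 of the 30 genes.

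Microglia, the resident macrophages of the brain, had 0, 5 and 0 Top2a UMIs. The 5 UMIs of the doxorubicin library came from 3 of 268 nuclei (1.12%, interval 0.231 to 3.24), each with at least 5 proliferation genes. Of these, 2 nuclei held 7614 and 8150 UMIs, against a class median of 1380, and 4 of the 5 Top2a UMIs. The part of depth or of doublets in them was not tested. The 239 microglia of control and the 292 of the third library had none, which allows a share with a UMI of up to 1.26% and 1.03% at 3 counts. Their exact intervals reached 1.53% and 1.26% and overlapped that of doxorubicin, so no difference is read from these shares. In dentate gyrus granule neurons, 1, 3 and 3 nuclei had Top2a, and of these 1, in control, held 3 or more proliferation genes. A class of immature neurons was found only as 12 nuclei of the third library, with no Top2a UMI, which allows up to 25.0%.

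Top2b was found in every class and was lowest in CA2/CA3 pyramidal neurons in all 3 libraries, at 80.3, 87.0 and 69.6 CPM. That is 0.638 times the level of the other classes in control (0.535 to 0.757), 0.756 times with doxorubicin (0.644 to 0.882) and 0.755 times in the third library (0.694 to 0.821). After thinning and new clustering, against 8, 9 and 11 other classes, the ratio was 0.842 in control and 0.572 and 0.513 in the others. The control interval held 1 (0.629 to 1.11). Within the original classes, 9.46%, 7.36% and 5.39% of thinned CA2/CA3 nuclei had a Top2b UMI, against 11.8%, 10.8% and 9.09% of all thinned nuclei. Oligodendrocyte precursors were high throughout, at 163, 173 and 165 CPM, which is 1.36 (0.979 to 1.84), 1.57 (1.18 to 2.04) and 1.88 (1.56 to 2.24) times the other classes. Neurons had 0.896 times the Top2b of the other 6 classes in control (0.801 to 1.0), 0.948 times with doxorubicin (0.850 to 1.06) and 0.707 times in the third library (0.657 to 0.762). Top2b shares 4624 bases at its end with Rarb, which lies on the opposite strand, and the sources used here do not say whether the counting used strand. Rarb had 63, 61 and 1299 UMIs in all, most densely in fibroblast-like cells (28.4, 54.3 and 246 CPM).

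The TOP3 genes encode the enzymes that undo crossed or single-stranded structures. Top3a, which works with BLM and RMI1 and also serves mitochondria, was sparse, with 245, 282 and 562 UMIs or 13.5, 13.9 and 9.44 CPM. Its levels in GABAergic neurons were 24.7, 19.9 and 11.9 CPM. Its levels in granule neurons were 8.95, 10.8 and 5.85 CPM. Fibroblast-like cells had 1, 0 and 4 UMIs and choroid plexus epithelium 5, 3 and 4, so no level is read from those classes. No neighbouring classes in the order had intervals apart.

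Top3b, which with TDRD3 and FMRP also acts on RNA, had a pattern led by a single class. Choroid plexus epithelium, the sheet of cells that makes cerebrospinal fluid, was highest in all 3 libraries, with 39, 51 and 74 UMIs in 102, 139 and 123 nuclei. These are 291 CPM (207 to 398), 262 CPM (195 to 345) and 168 CPM (132 to 211). The next class had 73.7, 74.0 and 34.3 CPM, and its interval did not reach that of choroid plexus in any library. Against the other 11 classes together the level was 4.69 times (3.32 to 6.46), 4.67 times (3.46 to 6.20) and 6.01 times (4.69 to 7.59). In the ACY-1083 library thinned to 1000 UMIs per nucleus it was 3.63 times (1.86 to 6.45). A Top3b UMI was found in 25.5%, 26.6% and 42.3% of choroid plexus nuclei (median 1233, 1222 and 3326 UMIs). The share was 3.84%, 4.53% and 6.26% in astrocytes (805, 856 and 1823 UMIs). It was 12.1%, 7.84% and 11.3% in microglia (1461, 1380 and 1586 UMIs). In the first pair of libraries microglia were of comparable depth and astrocytes were shallower. Both were shallower than choroid plexus in the third library. The other 11 classes lay between 42.9 and 73.7 CPM in control. Top3b overlaps no annotated gene but Vpreb1, by 108 bases on the opposite strand, which had 11, 20 and 61 UMIs in all nuclei.

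Tdp1, which frees trapped TOP1 and other blocked ends, was higher in neurons than in the other classes in all 3 libraries. The 6 neuron classes together had 54.6, 60.7 and 45.4 CPM, against 34.7, 32.4 and 28.5 CPM in the other 6. The ratio was 1.57 (1.28 to 1.95) in control, 1.87 (1.54 to 2.30) with doxorubicin and 1.59 (1.38 to 1.85) in the third library. With at least 600 genes per nucleus it was 1.30 (1.01 to 1.70) in control and 1.47 (1.18 to 1.84) with doxorubicin. Only 3 and 5 of the other classes had enough nuclei for these ratios. CA1 pyramidal neurons had 63.7, 71.6 and 49.8 CPM, and GABAergic neurons 62.2, 74.4 and 43.6 CPM. Astrocytes had 21.4, 24.2 and 28.8 CPM. Microglia, at 46.1, 54.7 and 38.5 CPM, were within the range of the neuron classes. Oligodendrocyte precursors, with 14 and 15 UMIs, were also within it in control and with doxorubicin. In the third library they were below every neuron class.

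Tdp2, which frees trapped TOP2 and so acts on the lesion that doxorubicin leaves, had 559, 550 and 993 UMIs or 30.8, 27.1 and 16.7 CPM. Fibroblast-like cells had 13, 11 and 22 UMIs, or 74.0, 54.3 and 47.1 CPM, and oligodendrocyte precursors 41.7, 57.8 and 27.0 CPM. In the first of these classes the level was 2.43 times that of the other classes in control (1.29 to 4.20), 1.95 times with doxorubicin (0.969 to 3.53) and 2.87 times in the third library (1.79 to 4.37). Thinned to 1000 UMIs per nucleus and clustered anew, it was 1.21 times with doxorubicin, against 9 other classes (0.146 to 4.44, from 2 UMIs in the class). In the third library it was then 2.01 times (0.854 to 4.04), and 1 lay inside both intervals. CA2/CA3 neurons were lowest in all 3 libraries, at 18.4, 20.5 and 13.3 CPM. All neighbours in the order of classes overlapped. The ratio of neurons to other classes differed between the phosphodiesterases. For Tdp1 it was 1.57, 1.87 and 1.59, with intervals above 1. For Tdp2 it was 0.864 (0.695 to 1.08), 0.854 (0.690 to 1.06) and 0.688 (0.581 to 0.820). Only in the third library did the Tdp2 interval leave out 1.

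The genes with the most similar pattern over the 12 classes were ranked by the lowest of the 3 libraries' Pearson r of log2(CPM + 20), a description over classes that share a library. For Top1 they were Ubn2, Hnrnph1 and Atrx (lowest r 0.745, 0.725 and 0.725). For Top2b they were Trappc6b, Tmem167 and Svil (0.719, 0.698 and 0.665). For Tdp1 they were Ap3b2, Eml6 and Unc80 (0.880, 0.879 and 0.878), and for Tdp2 Svil, Bbs9 and Cp (0.754, 0.751 and 0.745). The values for Top2a (Cspg4, Emid1 and Shc4, 0.936, 0.929 and 0.922) and Top3b (Drc7, Igfn1 and Olfr1507, 0.964, 0.960 and 0.960) turn on a single class each, precursors and choroid plexus. For Top3a no gene passed 0.519 (Nlk).

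Doxorubicin was compared with control in each class with at least 20 UMIs of a gene over both libraries. A pair of gene and class was called when the CPM ratio was at least 1.5-fold either way with an interval that did not hold 1. Of the 84 pairs of the 7 genes, 64 could be compared, and 0 were called higher and 1 lower. Over all genes, 1.98% of 111884 pairs were called higher and 2.27% lower, so 1 of 64 (1.56%) is close to that background. With at least 600 genes per nucleus 3 of 50 pairs were called lower, and with nuclei thinned to 1000 UMIs 5 of 40. These shares were above the 2.14% and 2.29% of all pairs called lower in those settings. The log2 ratio was above 0 in 31 of the 64 pairs and below 0 in 33.

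The pair called was Top2b in thalamic or habenular neurons, a class led by Prkcd and Zic1. It had 91 UMIs in 256 control nuclei (163 CPM, 132 to 201) and 77 UMIs in 356 doxorubicin nuclei (99.1 CPM, 78.2 to 124), a log2 ratio of -0.72 (ratio 0.606, interval 0.441 to 0.830). The third library had 85.2 CPM in this class. Thinned to 1000 UMIs and clustered anew, the class had 204 and 307 nuclei with 33 and 32 UMIs. The log2 ratio was then -0.63 and the interval held 1 (0.384 to 1.08). In the original class, nuclei with at least 1000 UMIs, once thinned, had 41 UMIs in 239 control and 32 in 333 doxorubicin nuclei. A Top2b UMI was found in 15.9% (11.5 to 21.2) and 9.01% (6.16 to 12.6) of these. Astrocytes had 152, 106 and 114 CPM of Top2b, a ratio of doxorubicin to control of 0.696 (0.541 to 0.896), which is short of 1.5-fold. Among astrocytes with at least 1000 UMIs, once thinned, 17.9% (13.3 to 23.5) of 234 control nuclei had a Top2b UMI. With doxorubicin it was 9.56% (6.75 to 13.0) of 366.

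With all kept nuclei and no thinning, the differences with doxorubicin elsewhere were smaller or less certain. The median log2 ratio over classes was -0.01 for Top1 (range -0.41 in microglia to 0.12 in precursors), against -0.03 for all genes. Microglia had 357 and 269.8 CPM of Top1, a ratio of 0.755 (0.605 to 0.940). The median was -0.11 for Top2b, -0.03 for Top3a and -0.17 for Top3b. CA2/CA3 neurons had 72.0 and 51.3 CPM of Top3b, a ratio of 0.713 (0.546 to 0.930). Tdp1 had 0.16, with 7 of 10 classes higher, from -0.33 in CA2/CA3 neurons to 0.28 in subicular or cortical neurons, and no interval that left out 1. Tdp2, the enzyme for TOP2 lesions, had -0.08. In granule neurons Tdp2 had 36.6 and 25.7 CPM, a ratio of 0.703 (0.542 to 0.909), and in astrocytes 39.5 and 24.2 CPM, a ratio of 0.611 (0.358 to 1.03). Among granule neurons with at least 1000 UMIs, once thinned, 3.97% (3.17 to 4.89) of 2092 control nuclei had a Tdp2 UMI. With doxorubicin it was 2.38% (1.80 to 3.07) of 2357. In thinned CA1 neurons the share was instead higher with doxorubicin, at 1.35% (0.739 to 2.25) and 2.62% (1.79 to 3.70). Top2a in precursors had 1.61 times the control level, with an interval from 0.718 to 3.84. Over all nuclei, where the mix of classes also enters, the ratio was 0.959 for Top1 (0.924 to 0.996), 0.892 for Top3b (0.822 to 0.967) and 0.882 for Tdp2 (0.782 to 0.994), and the intervals of Top2a, Top2b, Top3a and Tdp1 held 1.

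**Figure D3:**
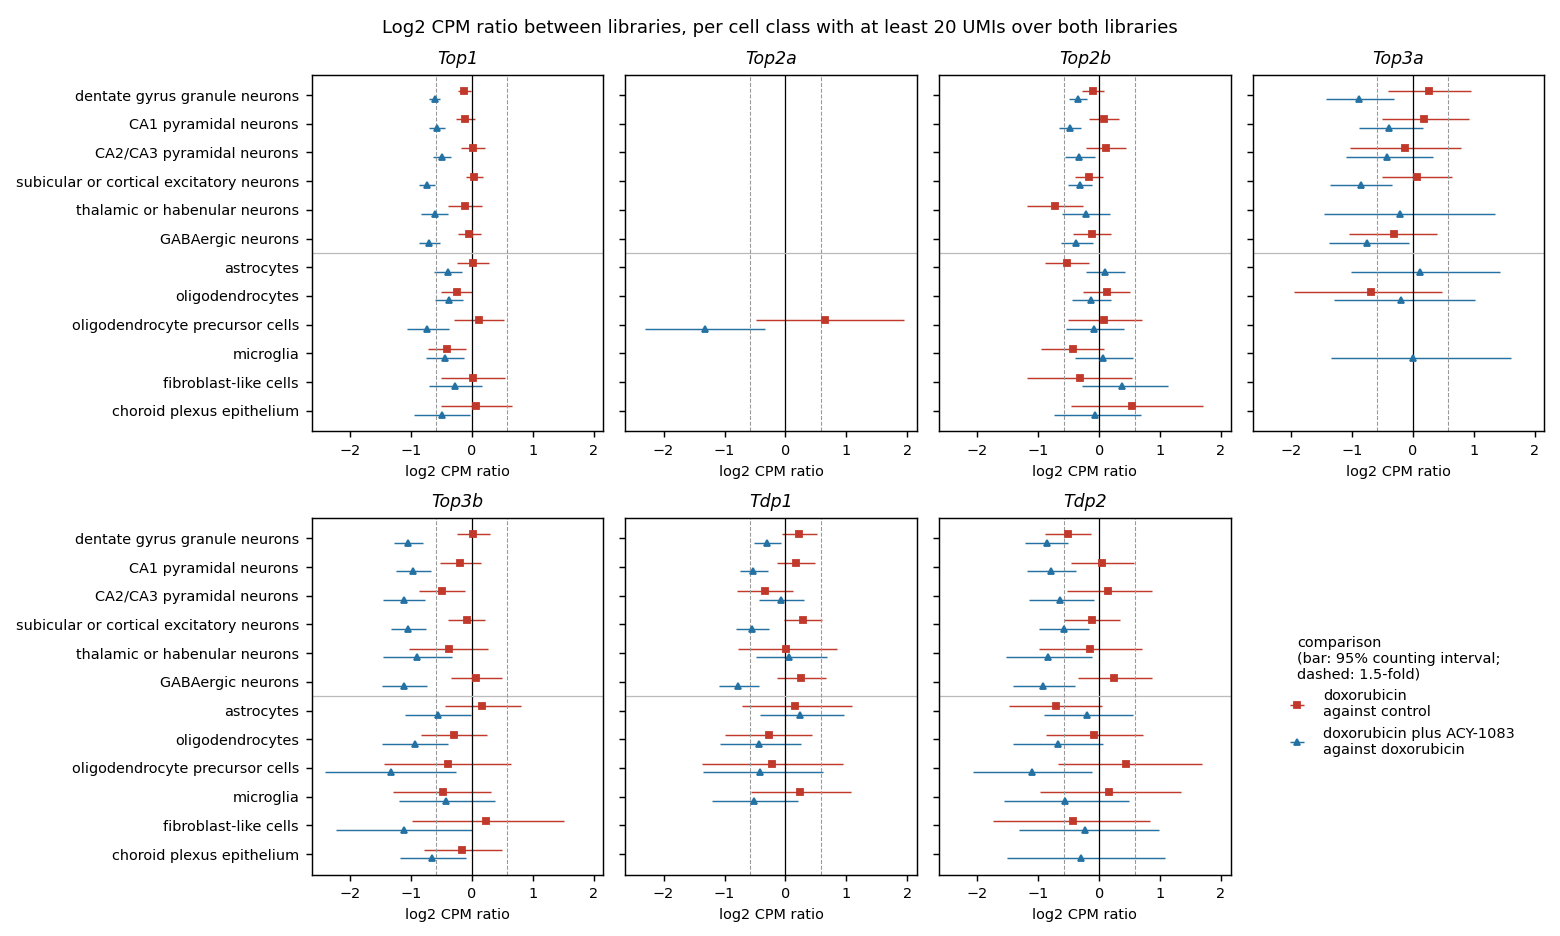
Log2 CPM ratios between libraries for each gene and class, for doxorubicin against control (squares) and doxorubicin plus ACY-1083 against doxorubicin (triangles), with bars for the exact 95% counting interval and dashed lines at 1.5-fold. Squares lie around 0, and the 1 called is Top2b in thalamic or habenular neurons (-0.72), while triangles lie below 0 in 61 of 68 pairs.

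In the third library most of the genes were lower. Of 68 pairs compared between doxorubicin plus ACY-1083 and doxorubicin, 0 were called higher and 25 lower (36.8%), and 61 lay below 0. The background was broad, with 25.8% of 141834 pairs called higher and 30.6% lower. The calls were 9 for Top3b, 6 for Tdp2, 5 for Top1, 3 for Top3a, 1 for Top2a, 1 for Tdp1 and 0 for Top2b. Only 4 pairs were called lower with TMM factors and 3 with DESeq2 size factors, which moved the median of all genes from -0.20 to 0.16 and 0.17 and the background to 33.3% higher and 19.3 or 19.2% lower.

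Intron length moved with these ratios. All genes were parted into 10 bins by total intron length. The median log2 ratio of the third library to doxorubicin went from -1.36 in the bin with the least intron to 1.25 in the bin with the most, but from 0.02 to -0.06 for doxorubicin to control. Its part in the ratios of the 7 genes was not tested, so medians over classes are also given minus the median of the gene's bin. The median over classes was -0.53 for Top1 and -0.93 after this subtraction. It was -0.18 for Top2b and -0.52 after it, -0.39 and -0.41 for Top3a, and -1.0 and -0.49 for Top3b. For Tdp1 it was -0.42 and -0.68, and for Tdp2 -0.66 and -0.02. Top2a, compared in precursors alone, had -1.32 and -0.84. Top1, Top2b, Top3b and Tdp1 thus lay below genes of like intron length, and Tdp2 lay near their median. The median of Top3a was also below, but no direction is read for this sparse gene. With the subtraction 28 pairs of the 7 genes were called lower and 0 higher, where 15.9% of all pairs were lower and 21.3% higher.

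**Figure D4:**
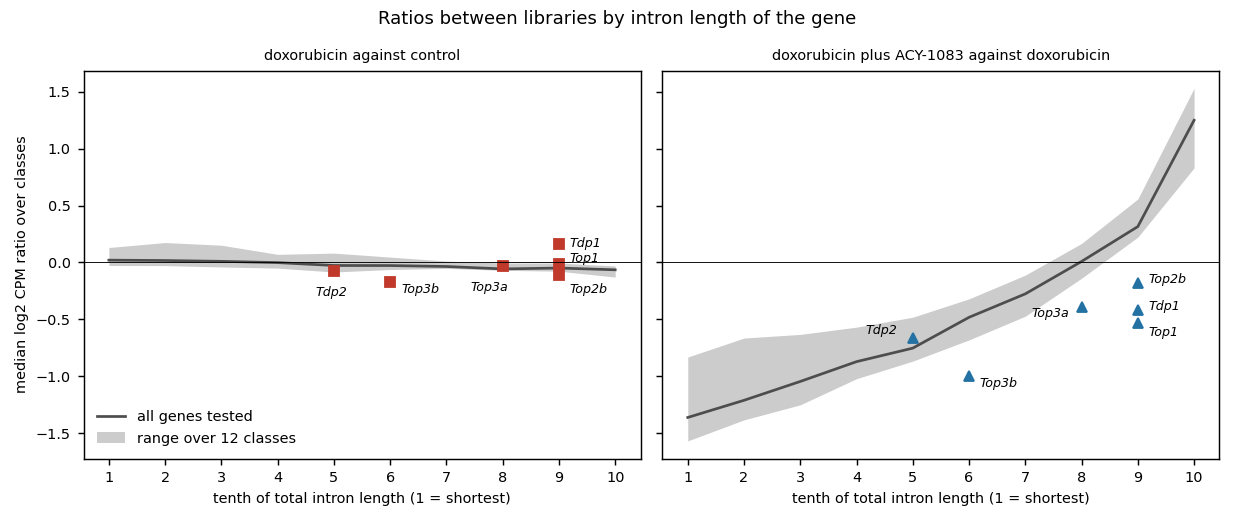
Median log2 CPM ratio over classes against the bin of total intron length (1, least, to 10, most), for all genes (line, with the range over the 12 classes shaded) and for the 6 genes with at least 6 classes compared (points). For doxorubicin against control the line stays between -0.06 and 0.02, and for doxorubicin plus ACY-1083 against doxorubicin it climbs from -1.36 to 1.25, with Top1 (-0.53), Top2b (-0.18) and Tdp1 (-0.42) below it in bin 9.

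Top1, Top3b and Tdp2 had log2 ratios of the third library to doxorubicin below 0 in all 12 classes. In granule neurons Top1 had 318 CPM with doxorubicin and 208 CPM in the third library, a ratio of 0.654 (0.613 to 0.699), or 0.531 (0.497 to 0.567) over the median of its intron bin. In the same class Top3b had 55.9 and 27.1 CPM, a ratio of 0.485 (0.410 to 0.575), or 0.722 (0.610 to 0.855) over that of its bin. Shares of nuclei depended on depth. Top1 was found in 43.1%, 41.8% and 53.9% of nuclei with at least 1000 UMIs, but in 26.0%, 24.2% and 17.0% of the same nuclei thinned to 1000 UMIs. Top2a in precursors had 20 UMIs with doxorubicin and 19 in the third library, which was deeper, a log2 ratio of -1.32 (ratio 0.401, 0.203 to 0.792). Several of these UMIs shared a nucleus, so this interval is too narrow. Over the median of its intron bin the Top2a ratio was 0.557 with an interval that held 1 (0.281 to 1.10), so the call was lost. The share of precursors with Top2a was 1.93% and 1.64%.

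Genes that work with topoisomerases or follow them in repair were taken as lists, whose counts are read against the background of 1.98% of pairs higher and 2.27% lower. The 5 partners of TOP3 had 39 pairs compared for doxorubicin against control, of which 0 were called higher and 1 lower. Their median log2 ratios were -0.29 for Rmi1, -0.17 for Fmr1, 0.06 for Tdrd3 and 0.14 for Blm, the helicase of the TOP3A complex. Of 16 genes that remove protein from DNA ends, 15 were used, with 1 of 130 pairs higher and 4 lower, and their median was -0.03. The lowest were Rbbp8 (-0.32), which starts end resection, and Fan1 (-0.32), a nuclease, and the highest Rnf4 (0.12), a ubiquitin ligase for SUMO-tagged proteins, and Ercc4 (0.14), the catalytic subunit of the XPF-ERCC1 nuclease.

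The 13 end repair genes had 1 of 115 pairs higher and 1 lower, with a median of -0.11. Xrcc5 (-0.26) and Xrcc1 (-0.20), a scaffold of single-strand break repair, were lowest, and Atm (0.05) and Prkdc (0.10), kinases of double-strand breaks, highest. Over all nuclei Prkdc had 57.6 CPM in control and 1.15 times that with doxorubicin (1.06 to 1.25). Of the 3 other topoisomerase-related genes, Topbp1 had -0.18, and none of their 15 pairs was called. The 30 proliferation genes had 2 of 68 pairs higher and 2 lower, with Prc1 (-0.18) and Pcna (0.02) lowest and Pola1 (0.08) and Anln (0.36) highest among the 5 with enough counts.

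For doxorubicin plus ACY-1083 against doxorubicin, against a background of 25.8% higher and 30.6% lower, the TOP3 partners had 9 of 43 pairs higher and 15 lower, and the genes of adduct removal 4 of 148 higher and 50 lower. The end repair genes had 47 of 135 higher and 37 lower. The other topoisomerase-related genes had 0 of 18 higher and 4 lower, and the proliferation genes 26 of 113 higher and 23 lower. These counts are without the subtraction for intron length.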

How the data were processed

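Single-nucleus libraries (10x Genomics, per the labels' protocols) of 3 groups were analysed, 1 library each. The deposited values are raw UMI counts per gene and barcode. The authors made them with Cell Ranger 6.0.0 on mm10, per the submitters' processing notes, while the file headers name version 4.0.0 for control and doxorubicin and 5.0.0 for the third library. The sources used here do not say whether intronic reads or strand were used. The libraries held 10909, 12221 and 12192 barcodes and 19175447, 21458785 and 62151258 UMIs. Nuclei with at least 300 genes, under 5% mitochondrial UMIs and a Scrublet score of at most 0.25 were kept. The automatic Scrublet threshold marked 3, 1 and 1 barcodes and was not used, and the fixed score, chosen after seeing the data, marked 452, 573 and 344. Nuclei were normalised, clustered (scanpy 1.11.5, leidenalg 0.10.2, resolution 1; 42 clusters, 33 of them named) and named from marker genes, with 9 clusters unnamed.

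UMIs were summed per class and library. CPM has an exact Poisson interval, ratios and shares of nuclei have exact Clopper-Pearson intervals (for a ratio, given the summed UMIs of both libraries), all at 95% and for counting error only; log2 ratios had 0.5 counts added. A share of 0 is limited by 3 counts. Gene models (GENCODE vM21) matched 32158 of 32285 genes. Promoters are from RefSeq and were used for 5 of the genes. The genes and lists were chosen with earlier results of these data known. Besides the 7 genes, the 3 most similar genes of each (with at least 50 CPM in a class of every library) and, of each list, the 2 genes with the largest and the 2 with the smallest median log2 ratio of doxorubicin to control (at least 6 classes) are named. Alternatives were doublets kept, at least 600 genes, Leiden resolution 0.5, separate clustering, TMM factors (edgeR 4.0.16), DESeq2 1.42.0 size factors, thinning to 1000 UMIs, other minimum counts and subtraction of the intron-length median. Thinning used nuclei with at least 1000 UMIs. With doublets kept, with at least 600 genes and after thinning, nuclei were clustered and named anew, so classes can hold other nuclei.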

Additional observations from a re-analysis of the deposited data

How the results depend on the processing

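For doxorubicin against control, 3 pairs of gene and class were called lower with at least 600 genes and 5 after thinning to 1000 UMIs, and the Top3a median was then 0.34 over 4 classes. For doxorubicin plus ACY-1083 against doxorubicin, the pairs called lower were 4 with TMM factors, 3 with DESeq2 size factors and 13 after thinning. With TMM factors the medians over classes were -0.20 for Top1, 0.15 for Top2b, 0.016 for Top3a, -0.59 for Top3b, -0.063 for Tdp1 and -0.37 for Tdp2. With DESeq2 size factors they were -0.21, 0.15, 0.0011, -0.57, -0.062 and -0.37 in the same order, so the medians of Top2b and Top3a changed sign, as did that of all genes (-0.20 to 0.16 and 0.17), and no direction is read for Top3a, whose counting error is 0.298. Minus the intron-length median, they were -0.93 for Top1, -0.52 for Top2b, -0.49 for Top3b, -0.68 for Tdp1 and -0.023 for Tdp2. After thinning they were -0.30 for Top2b and -0.77 for Top3a, and with at least 50 UMIs -0.75 for Top3a. The scalings shifted all genes alike, and thinning and the higher minimum left fewer classes; other causes were not tested. Class contrasts were repeated with alternatives chosen after seeing the data. The Top3b fold of choroid plexus in the third library was 3.63 and the Top2a fold of precursors 39.8 after thinning (58.9 with doublets kept, 65.3 with at least 600 genes). With at least 600 genes the Top2a fold with doxorubicin was 169.8, and the Tdp1 fold of neurons was 1.30 in control and 1.47 with doxorubicin. In the control library choroid plexus had too few nuclei with at least 600 genes or clustered on its own. No paired analysis was possible because each group had 1 library. Depth limits Top2a and Top3a, and with 1 library per group no difference can be set against biological spread.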
